A study of Homo sapiens with 6 samples.

Results

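The genes described here are 174 human ZNF genes, which encode zinc finger proteins, among the 15794 genes of an RNA sequencing comparison of TFDP1 knockout and control cells. They are the rows of the authors' deposited table whose symbol is ZNF followed by a number and at most 1 further letter, leaving out ZNF473, a factor of histone mRNA processing, and whose mean level is at least 4 log2 CPM, or 16 CPM, the usual depth-scaled unit of read counts. Of 438 ZNF genes of that pattern, 264 lay below the threshold. The knockout samples were cells of eHAP, a haploid human line engineered from HAP1, which expressed Cas9 and received guide RNAs against TFDP1 on a plasmid with a puromycin resistance gene (3 samples, genotype given as knockout). The control samples, called NC in the labels (3 samples, genotype wild-type, no gene knocked out), are of the same line. The treatment described in the labels, puromycin from 24 to 72 h and collection at 5 days, is the same for both groups. No clone is named, and the sequence of the guides and the share of edited cells were not given in the sources used here. Drosophila S2 cells were added to the eHAP cells as a spike-in before RNA was prepared. DP1, the product of TFDP1, pairs with most E2F factors, and the pair binds the promoters of cell cycle genes.

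Most ZNF proteins carry tandem C2H2 zinc fingers, short folds in which cysteines and histidines hold a zinc ion and a few side chains contact DNA, so that a row of fingers can read a long site. The largest class in mammals also carries a KRAB domain, which recruits the corepressor TRIM28 and, through it, the histone methyltransferase SETDB1 and HP1 proteins, and is known for silencing transposable elements. Many of these genes sit in clusters on chromosome 19. ZNF genes without KRAB include activators, chromatin complex subunits, and proteins that act on RNA, ribosomes or the spindle.

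The deposited table gives a log2 fold change, a mean level and the statistics of a likelihood ratio test for each gene, and holds no value per sample, so the spread between replicates, the depth of each library and the levels in each group are not known here. Replicates are described in the labels as biological. Which group stands on top of the fold change is not recorded. TFDP1 itself had a log2 fold change of 1.17 (2.25-fold, 226 CPM, adjusted p = 1.08e-283) in the authors' deposited table, so its transcript differed between the groups. Small Cas9 edits need not lower the amount of a transcript, so this value does not fix the direction. A gene is accordingly called positive when its fold change had the sign of TFDP1 (higher where TFDP1 transcript was more abundant) and negative when it had the other sign, at the authors' adjusted p under 0.05. Of 6 blood markers, the lineage from which HAP1 derives, only KIT (15.3 CPM) and CD34 (0.177 CPM) had a row in the authors' deposited table, and of 4 fibroblast markers only COL1A1 (19.4 CPM). In bulk RNA, fewer cells of a kind and less RNA per cell cannot be told apart.

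Of the 174 genes, 44 were positive, 19 negative and 111 were not called, so that 36.2% were called. In the background, 39.5% of all rows were called, and 50.9% of the 8893 rows at 16 CPM or above. The positive share of the ZNF genes, 25.3%, was near the 24.7% of all rows at that level, whereas the negative share was 10.9% against 26.2%. The median log2 fold change was 0.06 over the 174 genes, against -0.0038 over all rows at that level and -0.03 over all rows, and 108 of the 174 lay above 0 (62.1%, against 49.3% of the rows at that level). The ZNF genes were less abundant than those rows (median 5.06 against 5.91 log2 CPM) and their fold changes less precise, with a median approximate standard error of 0.0756 against 0.0640. What these differences contribute to the smaller share of calls was not tested. The genes were chosen by their level in the same table, so these counts are a description. The split moved with the choice of zero. With the median ribosomal protein gene, at -0.08, set to 0, 74 were positive and 11 negative, so that 87.1% of the calls were positive, against 69.8% as deposited. All rows at that level moved alike, with 38.1% positive and 17.2% negative.

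**Figure D1:**
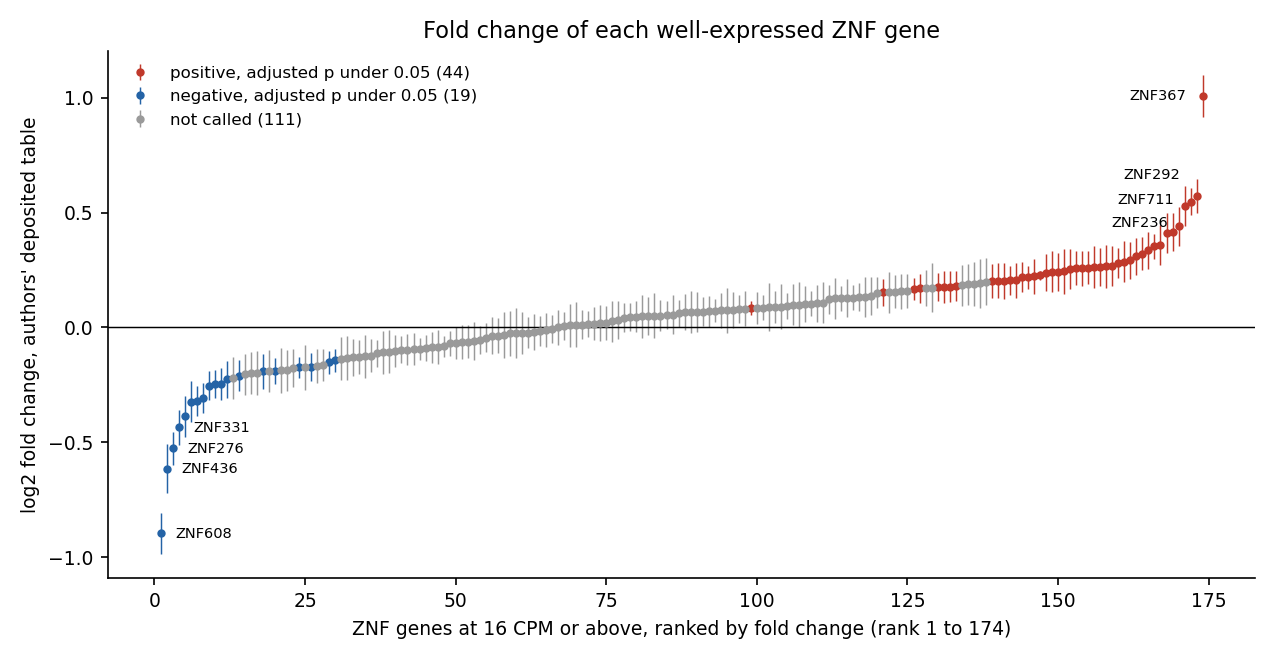
Log2 fold change of each of the 174 well-expressed ZNF genes in the authors' deposited table, ranked from the lowest to the highest. Bars are 1 approximate standard error, computed as the absolute log2 fold change over the root of the likelihood ratio. ZNF367 at 1.01 and ZNF608 at -0.90 stand apart at the ends, and most genes lie within 0.3 of zero.

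The changes were small. Only ZNF367 differed by at least 2-fold, and 3 of the 63 called genes by at least 1.5-fold. The median called ZNF gene differed by 1.19-fold, against 1.21-fold for all called rows at 16 CPM or above. Smaller changes were called where the error was small, as for ZNF207 at 1.06-fold, and a gene that was not called is not shown to be equal in both groups.

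E2F and DP1 bind promoters at sites close to TTTCCCGC, TTTCGCGC, TTTGCCGC or TTTGGCGC, which differ at their centre and of which none contains another. The RefSeq table of promoters (GRCh38.p14, 250 bases before to 50 after each gene's start) held 149 of the 174 genes, and 10 of these had at least 1 of these spellings on either strand (6.71%), against 429 of 7031 promoters of rows at 16 CPM or above (6.10%) and 908 of all 27305 promoters (3.33%). By call, 4 of 42 positive ZNF genes, 1 of 15 negative ones and 5 of 92 uncalled ones held a match. Over all rows of the table the shares were 8.37% of positive, 3.96% of negative and 4.64% of uncalled genes. The stretches of the 5 called ZNF genes with a match are shown because TFDP1 encodes the partner of the factors that read these letters. They are read 5′ to 3′ on the gene's strand, lie upstream of the RefSeq start of the gene, and have the matches in capitals (GCGCGAAA, GCGGGAAA and GCGCCAAA are matches on the other strand):
ZNF367: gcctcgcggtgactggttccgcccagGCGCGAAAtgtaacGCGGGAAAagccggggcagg
ZNF260: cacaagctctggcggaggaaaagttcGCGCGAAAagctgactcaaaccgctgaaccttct
ZNF131: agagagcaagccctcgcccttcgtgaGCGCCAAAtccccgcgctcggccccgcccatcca
ZNF638: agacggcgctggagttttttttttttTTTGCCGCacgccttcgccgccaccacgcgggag
ZNF74: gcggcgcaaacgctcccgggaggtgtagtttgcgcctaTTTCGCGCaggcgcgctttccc
These lie at chr9:96418372-96418431 (minus strand), chr19:36528394-36528453 (minus), chr5:43121368-43121427 (plus), chr2:71331591-71331650 (plus) and chr22:20394091-20394150 (plus). ZNF367 had 2 matches within 60 bases, the first of which began 35 bases before its start. In ZNF131 the match began at 67, in ZNF260 at 156 and in ZNF638 at 165 bases before the start, and ZNF74 had 1 match at 22 bases before the start and another outside the stretch. In the authors' deposited table ZNF260, a KRAB-free zinc finger gene, was at 0.27, ZNF131 at 0.22, ZNF638 at 0.20 and ZNF367 at 1.01, while ZNF74 was the only negative one, at -0.25. TTTGAA, a spelling of the CHR element bound by the MuvB complex, stood in 16 of the 149 ZNF promoters (10.7%, against 9.10% of rows at 16 CPM or above and 15.4% of all promoters), in 7 of 42 positive and 2 of 15 negative genes. Over all rows of the table it stood in 13.1% of positive, 7.77% of negative and 9.52% of uncalled genes. CCAAT stood in 53 (35.6%, against 36.8% and 35.7%). A match is a description of letters, not of binding.

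The positive genes were led by ZNF367, a zinc finger protein first described in fetal erythroid tissue (chromosome 9, positions 96385941 to 96418329 of GRCh38, minus strand, protein coding). Its log2 fold change was 1.01 with an approximate standard error of 0.0923, or 2.01-fold, at 22.1 CPM in the authors' deposited table (adjusted p = 5.98e-26, edgeR's likelihood ratio test). Its promoter stretch, shown above, holds 2 E2F spellings. ZNF292, a gene linked to a neurodevelopmental disorder (chromosome 6, positions 87152833 to 87264196, plus strand), was at 0.57 and 42.3 CPM (adjusted p = 2.39e-13), and ZNF711, an X-linked intellectual disability gene whose product binds promoters together with the demethylase PHF8 (chromosome X, positions 85244032 to 85273362, plus strand), at 0.55 and 114 CPM (adjusted p = 3.24e-19), both in the authors' deposited table. ZNF236 (0.53) and ZNF407 (0.44), proteins with many fingers, lie near each other on the long arm of chromosome 18. The KRAB genes ZNF302 (0.42) and ZNF227 (0.41) of chromosome 19 came next, then ZNF148 (0.36), which binds GC-rich promoter elements, ZNF507 (0.35) and the KRAB gene ZNF678 (0.34). The adjusted p of these 7 genes ranged from 8.46e-10 for ZNF507 to 2.45e-04 for ZNF148 in the authors' deposited table. With trends on length and GC content of the transcript removed, ZNF148 (0.13, adjusted p = 0.243) and ZNF678 (0.10, adjusted p = 0.356) were no longer called. Here and below, adjusted p-values after re-centring or removal of trends are from an approximate retest, described with the processing, and not from the authors.

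The negative genes were led by ZNF608 (chromosome 5, positions 124636913 to 124748807, minus strand), whose mouse orthologue represses the Rag recombinase genes in thymocytes. Its log2 fold change was -0.90 with an approximate standard error of 0.0893, at 28.1 CPM in the authors' deposited table (adjusted p = 5.09e-22). The KRAB gene ZNF436 was at -0.61 (60.6 CPM, adjusted p = 1.36e-07) and ZNF331, a KRAB gene that is imprinted in human tissues, at -0.44 (38.5 CPM, adjusted p = 1.77e-07). ZNF408, a gene of inherited retinal disease, was at -0.39, the KRAB gene ZNF778 at -0.32, ZNF516 at -0.32, ZNF217 at -0.31, ZNF593 at -0.25 and ZNF74, which lies in the region deleted in DiGeorge syndrome, at -0.25 in the authors' deposited table. ZNF217, an oncogene amplified in breast cancer, and ZNF516 both encode partners of CtBP corepressor complexes. ZNF516 (chromosome 18, positions 76358190 to 76495190) is the neighbour of ZNF236 in position but of the other sign.

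ZNF276 was at -0.53 in the authors' deposited table (49.0 CPM, adjusted p = 1.75e-11). It is annotated on the plus strand of chromosome 16 (positions 89720400 to 89740903). Of its exon bases, 31.0% overlap FANCA, a Fanconi anaemia gene on the opposite strand, and a smaller part overlaps VPS9D1 on that strand. FANCA was at 0.52 in the authors' deposited table (43.6 CPM, adjusted p = 9.20e-16), the opposite sign to ZNF276, and VPS9D1 was at -0.08 and not called (adjusted p = 0.688). Strand settings of the counting were not given in the sources used here, and reads from the overlap cannot then be assigned, so both values are uncertain in size. All exon bases of ZNF593 overlap an annotated antisense gene, with the same uncertainty.

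**Figure D2:**
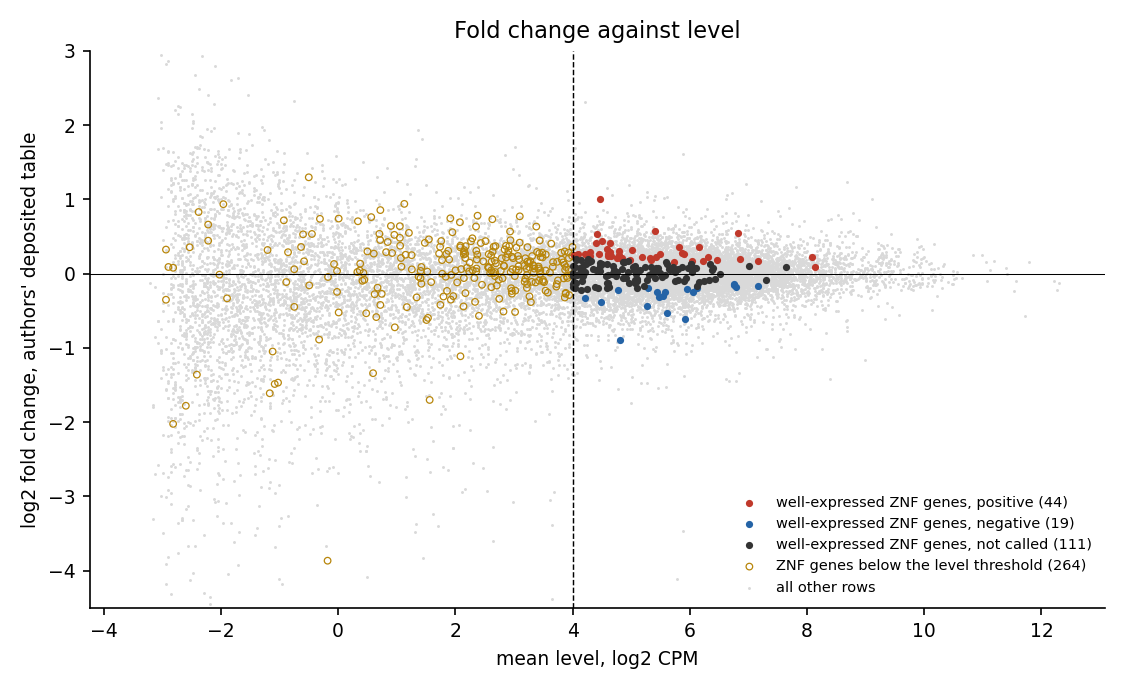
Log2 fold change against mean level in log2 CPM, both from the authors' deposited table, with the 174 well-expressed ZNF genes coloured by call, the 264 ZNF genes below the threshold (dashed line, 4 log2 CPM) as open circles and all other rows in grey. Of all rows, 21 lie outside the plotted range. Fold changes spread more widely at low levels, and the well-expressed ZNF genes stay within 1.01 of zero.

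ZNF207 had the highest level, at 282 CPM in the authors' deposited table, followed by ZNF664 (272 CPM), ZNF146 (199 CPM), ZNF598 (158 CPM) and ZNF512B (143 CPM). Of these ZNF512B was negative (-0.17, adjusted p = 0.0157), but lost its call with the median ribosomal protein gene set to 0 (-0.09, adjusted p = 0.231) and with length and GC trends removed (-0.10, adjusted p = 0.165), while ZNF146 (0.09, adjusted p = 0.236), a protein made almost wholly of fingers, and ZNF598 were not called. Per kilobase of the longest annotated transcript the order changes: the short ZNF593 was the highest of the 174 with 94.9 CPM per kb, ZNF664 had 53.3 and ZNF207 stood at 20.5. ZNF664 had the smallest p of the well-expressed ZNF genes, with a log2 fold change of 0.23 (adjusted p = 2.42e-29) in the authors' deposited table. Its approximate standard error of 0.0195 compares with a median of 0.0424 among the 436 rows between 8 and 9 log2 CPM, so its p rests on an unusually small error as well as on its fold change. At the threshold, ZNF654 (0.01), ZNF697 (-0.17) and ZNF791 (-0.03) lay just inside, and ZNF23 (0.36), ZNF160 (0.24) and ZNF324 (-0.02) just outside, the lowest at 15.8 CPM, in the authors' deposited table. Of these 6 only ZNF23 was called.

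DNA-binding regulators with a known role outside KRAB silencing numbered 12, of which 6 were positive, 2 negative and 4 uncalled, and their median log2 fold change was 0.17. The share called was 66.7%, against 50.9% of all rows at 16 CPM or above (24.7% positive and 26.2% negative). Besides ZNF292, ZNF711 and ZNF148, the positive ones in the authors' deposited table were ZNF410 (0.28), known for activating CHD4, the BTB factor ZNF131 (0.22), and ZNF143 (0.20), an activator at promoters of snRNA and protein-coding genes. The negative ones were ZNF217 and ZNF462 (-0.19, adjusted p = 0.0349), a gene of a developmental syndrome. ZNF384, a fusion partner in leukaemia, was at 0.13 (adjusted p = 0.0504), ZNF24 at 0.10, the microcephaly gene ZNF335 at -0.06 and ZNF281, a regulator in stem cells, at -0.09, none of them called in the authors' deposited table. ZNF410 shares 85.5% of the 50-base words of its longest transcript with an overlapping annotated gene, so its value is uncertain. ZNF384 was called positive under 6 of the alternatives described in the closing part, and ZNF462 was not called with the median ribosomal protein gene set to 0 (-0.11, adjusted p = 0.244). With length and GC trends removed, ZNF143 (0.15, adjusted p = 0.0940) lost its call and ZNF281 (-0.20, adjusted p = 0.0113) gained one.

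Partners of chromatin enzymes numbered 8, of which 3 were positive, 1 negative and 4 uncalled (median log2 fold change 0.09). At 50%, the share called was near the 50.9% of all rows at 16 CPM or above. ZNF518B, a partner of the H3K9 methyltransferase G9a, was at 0.26 (adjusted p = 0.0153 in the authors' deposited table), while its paralogue ZNF518A was at 0.10 (adjusted p = 0.438). ZNF592, which binds ZMYND8 together with ZNF687, was at 0.26 (adjusted p = 0.00114) and ZNF687 at -0.11 (adjusted p = 0.145) in the authors' deposited table. ZNF451, a SUMO ligase, was at 0.15 (adjusted p = 0.0286), and at -0.05 and not called with trends on length and GC removed, where ZNF518B was also not called (0.10, adjusted p = 0.422). ZNF609, whose mouse orthologue works with the cohesin loader NIPBL, was negative at -0.17 (adjusted p = 7.09e-04), and at -0.09 and not called with the median ribosomal protein gene set to 0 (adjusted p = 0.0895). The G9a partner ZNF644 (0.08) and the NuRD recruiter ZNF827 (0.02) were not called in the authors' deposited table. Members of one complex were thus on either side of the threshold, and whether they differ from each other was not tested.

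Genes that act on RNA, ribosomes or the spindle numbered 9, and 3 were positive, 2 negative and 4 uncalled (median log2 fold change 0.05). The share called, 55.6%, was near the 50.9% of all rows at 16 CPM or above. The positive ones in the authors' deposited table were ZNF326 (0.22, adjusted p = 7.90e-05), a splicing factor of AT-rich exons, ZNF638 (0.20, adjusted p = 0.0180), an RNA-binding protein that also recruits the HUSH silencing complex to retroviral DNA, and ZNF207 (0.08, adjusted p = 0.0235), a spindle assembly factor that binds BUB3. Removing trends on length and GC turned ZNF207 to the negative side (-0.14, adjusted p = 6.82e-05), and took ZNF326 to -0.0035 and ZNF638 to 0.04, neither called. The negative ones, ZNF593 (-0.25, adjusted p = 3.68e-04) and ZNF622 (-0.21, adjusted p = 0.00774), are both known, mainly from their yeast orthologues, for maturation of the large ribosomal subunit, and both lost their call with those trends removed. ZNF622 also lost it with the median ribosomal protein gene set to 0 (-0.13, adjusted p = 0.117). ZNF598, the ligase that marks collided ribosomes, was at -0.08 (adjusted p = 0.156), the double-stranded RNA binding protein ZNF346 at -0.02, ZNF330 at 0.06 and ZNF830 at 0.05 in the authors' deposited table.

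Of 10 KRAB genes listed for transposon, imprint or promoter binding, 5 reached the level threshold, of which 2 were positive and 3 not called. The share called was 40%, against 50.9% of all rows at 16 CPM or above. ZNF202 (0.31, adjusted p = 4.92e-04) and ZNF445, which protects imprinted regions (0.22, adjusted p = 0.0142), were the positive ones in the authors' deposited table. ZNF91, which silences SVA elements, was at -0.18 (adjusted p = 0.0830), ZNF587 at -0.13 (adjusted p = 0.187) and ZNF268 at 0.10 (adjusted p = 0.351). With length and GC trends removed, ZNF91 (-0.34, adjusted p = 2.16e-04) and ZNF587 (-0.24, adjusted p = 0.00435) were called negative and ZNF445 was not called (0.09, adjusted p = 0.352).

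**Figure D3:**
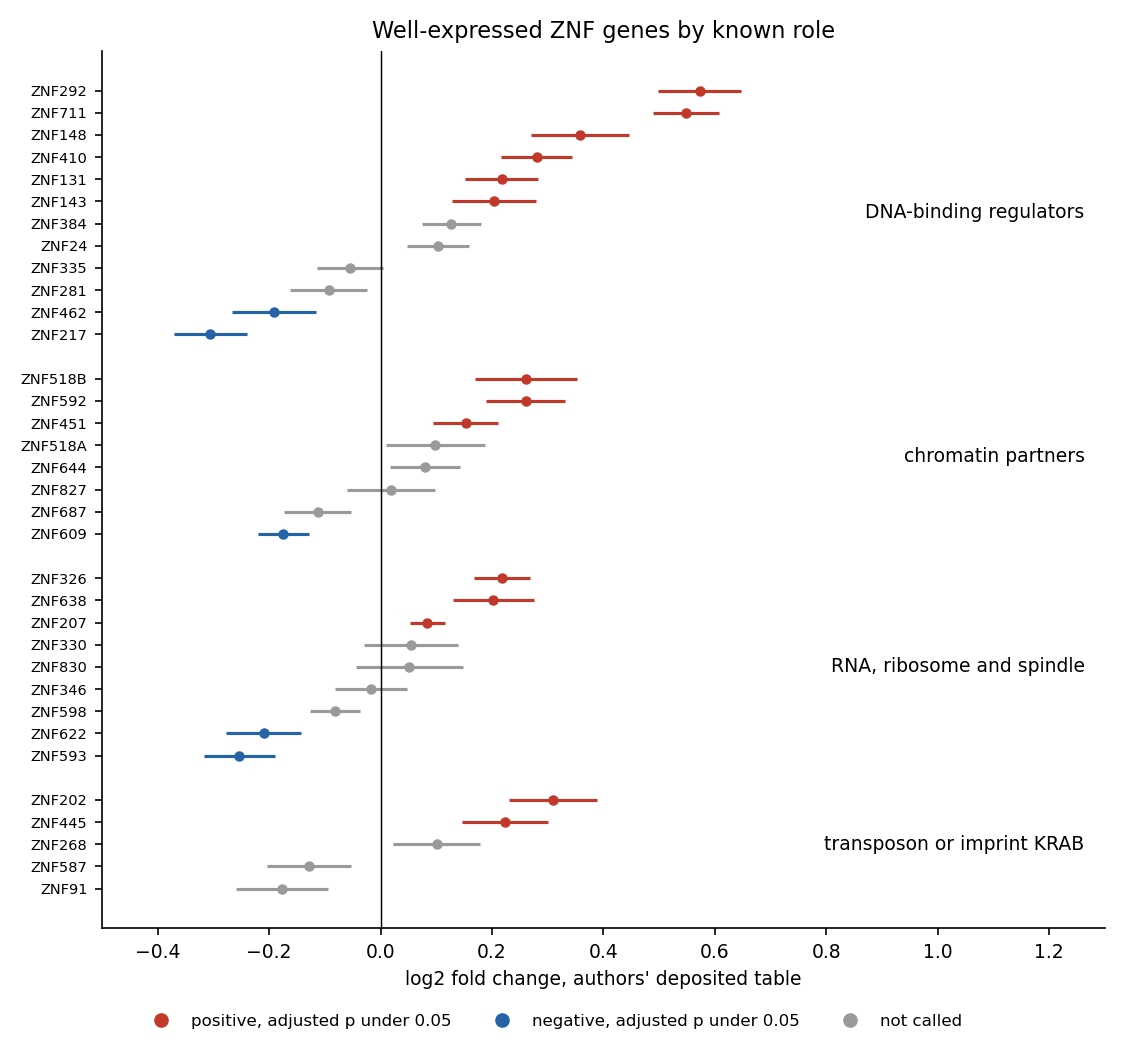
Log2 fold change in the authors' deposited table of the 34 well-expressed ZNF genes in the 4 role lists, with bars of 1 approximate standard error. Each list holds positive genes and genes that were not called, and the list of transposon or imprint KRAB genes holds no negative call.

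The machinery through which KRAB proteins act was read from the same table. Of 15 corepressor genes, all at 61.9 CPM or above, 11 were not called, 3 were positive and 1 negative, so that 26.7% were called, against 50.9% of all rows at 16 CPM or above, and the median log2 fold change was 0.04, against -0.0038 over those rows. The HP1 genes CBX1 (0.22, adjusted p = 9.49e-05) and CBX3 (0.15, adjusted p = 0.0369) and the NuRD helicase gene CHD4 (0.08, adjusted p = 6.84e-06) were positive, and CHD3 was negative (-0.07, adjusted p = 2.35e-04), in the authors' deposited table. Both CHD genes had small approximate standard errors, 0.0162 for CHD3 and 0.0155 for CHD4. TRIM28, the hub of the pathway at 1146 CPM, was at 0.06 (approximate standard error 0.0397, adjusted p = 0.267), and SETDB1 at 0.01 (standard error 0.0601, adjusted p = 0.910). The HUSH genes MPHOSPH8 (-0.0059), FAM208A (0.02) and PPHLN1 (-0.03) were likewise not called in the authors' deposited table.

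A KRAB domain was found by a weight matrix in at least 1 annotated coding transcript of 75 of the 172 ZNF genes that have one. The KRAB genes gave 16 positive and 4 negative calls (26.7% called; median log2 fold change 0.08), and the 97 genes without KRAB 27 positive and 14 negative calls (42.3% called; median 0.04). The positive shares were 21.3% with KRAB and 27.8% without, and the negative shares 5.33% and 14.4%. The background at 16 CPM or above was 24.7% positive and 26.2% negative, or 50.9% in either direction. Both classes thus had positive shares near the background and smaller negative shares. The KRAB genes were less abundant (median 4.64 against 5.43 log2 CPM) and their transcripts poorer in GC (median 43.3% against 51.8%). Finger number ranged from 0 to 35, with a median of 9. The 65 genes with over 10 fingers had a median log2 fold change of 0.09, the 55 with 6 to 10 one of 0.07, and the 52 with at most 5 one of -0.0029. The correlation of log2 fold change with finger number across the 172 genes was weak (Pearson's r 0.13, Spearman's rho 0.16). ZNF142 had the most fingers, with a log2 fold change of 0.12 (adjusted p = 0.132), and was named after its values were seen.

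The GC content of the longest annotated transcript went with the sign of the fold change more closely than any other feature described here. Of the 58 ZNF genes with the lowest GC (34.0% to 42.5%), 24 were positive and 1 negative. Of the 58 with the highest GC (52.6% to 71.1%), 1 was positive and 11 negative. The middle 58 gave 19 positive and 7 negative genes, among them both ZNF367 and ZNF608. The median log2 fold change was 0.13 in the group of lowest GC, 0.07 in the middle group and -0.03 in the group of highest GC. The pattern is not particular to ZNF genes: of all rows at 16 CPM or above in the same GC ranges, 38.8% were positive and 10.8% negative at the low end, and 13.9% positive and 42.1% negative at the high end. In the middle range 24.9% of those rows were positive and 22.4% negative. For the ZNF genes the positive and negative shares were 41.4% and 1.72% at the low end, 32.8% and 12.1% in the middle, and 1.72% and 19% at the high end. Across the 174 genes Pearson's r of log2 fold change with GC content was -0.35 and Spearman's rho -0.42, against -0.32 and -0.37 over 8602 rows at that level. All points come from the same libraries, and genes are not independent replicates. The part of GC content in the fold changes was not tested beyond removing its trend. Longer transcripts had slightly higher fold changes (r = 0.18 with log2 length, rho = 0.19).

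**Figure D4:**
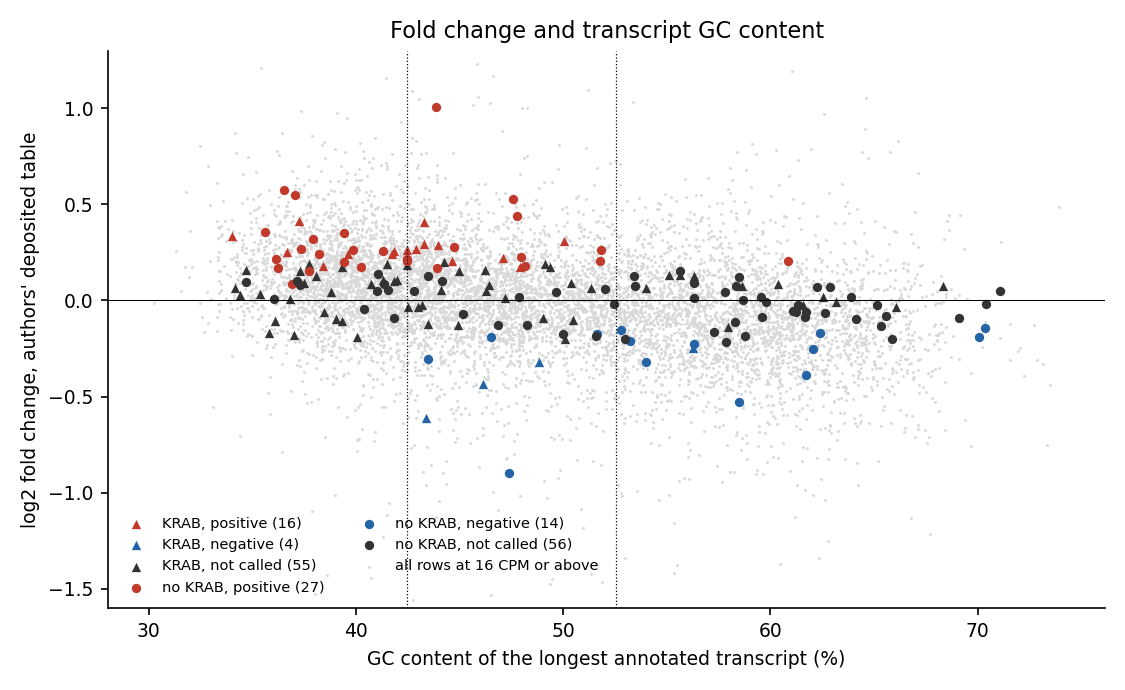
Log2 fold change in the authors' deposited table against the GC content of the longest GENCODE 29 transcript, for ZNF genes with KRAB (triangles) and without (circles), coloured by call, over all rows at 16 CPM or above in grey (6 rows outside the range). Dotted lines part the ZNF genes into 3 groups of 58. Positive calls gather at low GC and negative calls at high GC.

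The calls were also counted by class within the 3 groups of GC content. In the group of lowest GC, KRAB genes gave 8 positive and 0 negative calls of 31 and the others 15 and 0 of 25. In the middle group, KRAB genes gave 8 positive and 3 negative of 31 (35.5% called) and the others 11 and 4 of 27 (55.6% called). Their median log2 fold changes there were 0.08 and 0.06. In the group of highest GC, KRAB genes gave 0 positive and 1 negative of 13 and the others 1 and 10 of 45. Over called and uncalled genes of that group, the KRAB genes had a median log2 fold change of 0.07, with 8 of 13 above 0, and the others one of -0.07, with 15 of 45 above 0. The 1 negative gene of the lowest group, ZNF271P, is an annotated pseudogene (-0.24) and has no coding transcript. With trends on length and GC removed over all rows, 30 of the 174 genes were positive and 25 negative, against 44 and 19 as deposited, and the median was 0.03. These were 17.2% and 14.4% of the genes. Of 8602 rows at 16 CPM or above, 20.2% were then positive and 27.7% negative.

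Chromosome 19 carried 45 of the 174 genes, more than any other chromosome. They gave 8 positive and 2 negative calls, with a median log2 fold change of 0.05, against 36 positive and 17 negative and a median of 0.07 for the 129 on other chromosomes. All 548 rows of chromosome 19 at 16 CPM or above had a median of -0.12, with 13.7% positive and 43.6% negative. Their median transcript GC was 59.9%, against 44.6% for the ZNF genes of that chromosome. The next chromosomes in number were 16 and 7. Of 18 genes on chromosome 16, 0 were positive and 2 negative, and of 17 on chromosome 7, 4 were positive and 0 negative. The shares over all rows of chromosomes 16 and 7 were not counted. Over rows of any chromosome at 16 CPM or above, 24.7% were positive and 26.2% negative.

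Related zinc finger families also had more positive than negative calls as deposited, whereas 17.3% of all rows were positive and 22.2% negative. ZNF genes of the same pattern below the threshold gave 38 positive and 21 negative calls of 264 (14.4% and 7.95%, median log2 fold change 0.09). The 40 ZBTB genes, which pair fingers with a BTB domain, gave 12 positive and 3 negative calls (30% and 7.5%, median 0.03). The 23 ZSCAN and ZKSCAN genes, which carry a SCAN dimerisation domain, gave 7 and 0 (30.4% and 0%, median 0.13). The 15 ZFP genes gave 6 and 3 (40% and 20%, median 0.20). At 16 CPM or above the counts were 11 and 2 of 28 for ZBTB (39.3% and 7.14%). They were 4 and 0 of 7 for ZSCAN and ZKSCAN (57.1% and 0%) and 3 and 2 of 7 for ZFP (42.9% and 28.6%). Of all rows at that level, 24.7% were positive and 26.2% negative. Median transcript GC was 42.4% for the ZNF genes below the threshold, 43.6% for ZBTB, 47.6% for ZSCAN and ZKSCAN and 44.5% for ZFP. It was 48.8% over all rows. These families differ from the 174 genes in level, and the difference between families was not tested.

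**Figure D5:**
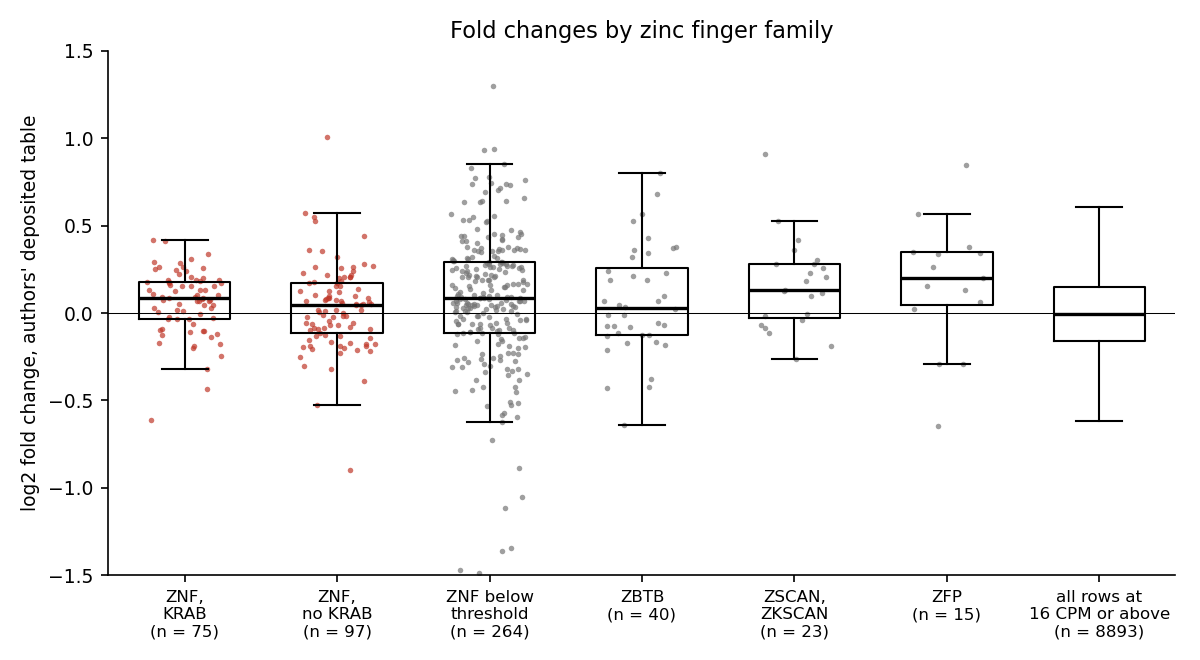
Log2 fold change in the authors' deposited table by family: well-expressed ZNF genes with and without KRAB (red), ZNF genes below the threshold and 3 related families at all levels (grey), and all 8893 rows at 16 CPM or above. Boxes show the quartiles and median, whiskers reach to the last point within 1.5 times the box height, and 5 ZNF genes below the threshold lie outside the range. The medians of the 6 zinc finger groups lie between 0.03 and 0.20, above that of all rows.

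Copies and overlaps limit some values. Exons of 21 of the 174 genes overlap another annotated gene over at least 20% of their bases, among them 3 positive and 3 negative ones, and 7 genes share at least 20% of their 50-base words with another gene, up to 99.2% for ZNF468, an uncalled gene named after its values were seen. The counting rules for such reads were not given in the sources used here. Without these genes 41 were positive and 16 negative of 153. By contrast, 149 of the 174 genes shared under 5% of such words with any other gene.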

How the data were processed

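Per the labels, polyadenylated RNA of 3 TFDP1 knockout and 3 control samples was sequenced with Drosophila cells as a spike-in. Named in the submitters' processing notes are, with no version, edgeR, featureCounts, HISAT2 and Trimmomatic, and the genome builds dm6 and hg38. The log2 fold changes and log2 CPM values, the likelihood ratio (a score on 1 degree of freedom) and the p-values and adjusted p-values were deposited by the authors, per the file headers. Scaling, by library or spike-in, strand handling and library depths were not given in the sources used here. All 15794 rows carry the hg38 prefix.

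Because only a comparison table was at hand, the authors' calls were counted, and no new test from sample values and no set test was made. The members and lists were chosen with earlier results of these data known. Named are TFDP1, the 10 called genes per direction with the largest change, the 5 of highest level, 3 genes on each side of the threshold and all members of 4 role lists. Positions, transcript length and GC content, exon overlaps, shared 50-base words and coding sequences came from GENCODE 29, in which all 174 symbols were found (14777 of all rows). Fingers are matches to the C2H2 spacing, and KRAB is a score of at least 20 bits on a 38-residue matrix built from 274 sequence windows. Alternatives changed the threshold, level, centring and adjustment and removed lowess trends (span 0.3). After re-centring or removal of trends, each gene was retested approximately. The shifted fold change over its approximate standard error was squared, read on 1 degree of freedom and adjusted anew over the rows. Those p-values are not edgeR's. Re-centring was checked on simulated statistics for 15794 genes, where it recovered 98 of 100 positive and 98 of 100 negative log2 changes of 0.5. All other genes were unchanged there and the errors were taken as known. In the data 39.5% of all rows were called and the median called ZNF gene differed by 1.19-fold. Recovery of changes that small, among that many changed genes, was not tested. Python 3.11.15, pandas 2.3.3, numpy 2.4.6, scipy 1.17.1, statsmodels 0.14.6 and matplotlib 3.10.9 were used.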

Additional observations from a re-analysis of the deposited data

How the results depend on the processing

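The 44 positive and 19 negative calls were recomputed under 10 alternatives and the median of 0.06 under the 7 that can move it. At an adjusted p under 0.01, 25 genes were positive (14.4%) and 15 negative (8.62%). All rows at 16 CPM or above then had 19.7% positive and 21.1% negative. At a level threshold of 5 log2 CPM, 21 of 90 genes were positive, and the share over all rows at that level was not counted. With the median ribosomal protein gene, at -0.08, set to 0, 74 were positive and 11 negative and the median was 0.15. The other counts stayed within 1.5 times the deposited ones, and the median stayed positive under its 7 alternatives, between 0.03 and 0.15. With length and GC trends removed, ZNF207 (-0.14), ZNF326 (-0.0035) and ZNF451 (-0.0536) changed sign. Of 59 named genes, that setting kept the sign but ended the call of 9 and added a call for 4. Leaving out genes that overlap or resemble another gene was chosen after seeing the data. No paired analysis was possible because the table holds no value per sample, and for the same reason no replicate could be left out. Depth is unknown, and the error of each fold change, at a median of 0.0756, limits what could be called.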
